A study of Mus musculus with 16 samples.

Results

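The genes described here are 10 that build or regulate the mucus of the intestinal goblet cell and the mucin coat of the epithelial surface. They are Muc2, Fcgbp, Clca1, Zg16, Tff3, Spink4, Agr2, Spdef, Muc13 and Muc3, chosen by name, and all 10 were among the 15267 genes tested of 41740 listed. RNA from the whole wall of the ileum was sequenced in 16 male mice aged 20 weeks. STAM mice, a model of diabetes with steatohepatitis and liver cancer, were given streptozotocin as newborns and fed a high-fat diet once they were 4 weeks old, and mice of all 3 groups carried a floxed insulin receptor gene. Control-STAM-nonINS mice (n = 4) were negative for Villin-Cre and received no insulin, and are called untreated controls below. Control-STAM-INS mice (n = 6) had the same genotype and received insulin degludec 2 times a day from 6 weeks, at up to 12 U/kg, and are called insulin-treated controls. ieIRKO-STAM-INS mice (n = 6) carried Cre driven by the Villin promoter, which acts in the intestinal epithelium, and received the same insulin, and are called ieIRKO mice. The insulin comparison sets insulin-treated against untreated controls, the ieIRKO comparison sets ieIRKO mice against insulin-treated controls, and the third sets ieIRKO mice against untreated controls. Positive log2 fold changes mean higher in the first-named group.

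Goblet cells make the gel that covers the intestinal epithelium. Its frame is Muc2, a very large glycoprotein that is folded with the help of Agr2 in the endoplasmic reticulum, decorated with O-linked sugars in the Golgi and stored in granules until it is released and unpacked. Fcgbp, Clca1, Zg16, Tff3 and Spink4 are secreted by the same cells, and Spdef is a transcription factor of goblet cell maturation. Muc13 and Muc3 are mucins that stay anchored in the apical membrane, mainly of enterocytes, where they form part of the glycocalyx.

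Muc2 and Agr2 rose and fell together from library to library, as shown further on, so the sequences before their starts are given here, with that of Fcgbp, a protein bound in the Muc2 gel. They are the 250 bases before the RefSeq start in build GRCm38.p6, all on the plus strand, with CAGCTG, a form of the E-box bound by basic helix-loop-helix factors, in capitals. Muc2 lies at chr7:141690090-141690339, Fcgbp at chr7:28070986-28071235 and Agr2 at chr12:35992675-35992924.
Muc2: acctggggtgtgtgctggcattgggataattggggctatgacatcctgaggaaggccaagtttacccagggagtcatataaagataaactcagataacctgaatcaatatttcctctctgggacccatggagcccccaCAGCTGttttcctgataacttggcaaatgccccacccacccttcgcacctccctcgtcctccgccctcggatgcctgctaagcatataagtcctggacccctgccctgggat
Fcgbp: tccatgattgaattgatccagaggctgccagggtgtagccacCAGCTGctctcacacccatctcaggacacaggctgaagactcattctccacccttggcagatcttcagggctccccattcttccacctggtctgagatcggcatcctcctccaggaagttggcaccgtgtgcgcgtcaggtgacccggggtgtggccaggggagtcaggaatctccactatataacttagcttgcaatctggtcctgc
Agr2: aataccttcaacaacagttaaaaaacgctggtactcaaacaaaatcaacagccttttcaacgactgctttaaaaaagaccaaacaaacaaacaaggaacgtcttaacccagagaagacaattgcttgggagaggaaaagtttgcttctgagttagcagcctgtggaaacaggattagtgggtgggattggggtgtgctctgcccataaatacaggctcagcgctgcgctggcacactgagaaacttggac
The letters CAGCTG, which read the same on both strands, stood once before Muc2 and once before Fcgbp, and were not found in this window before Agr2, Spdef, Muc13 or Muc3. They occurred in 13.0% of 32851 windows of this length in the table, so their presence is a description of these windows and not of binding. Clca1, Zg16, Tff3 and Spink4 had no entry there.

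The study also measured Muc2 by real-time PCR. Its primers show which stretch of the gene that assay reads, and both were found in Muc2 transcripts.
Muc2 forward: acatcacctgtcccgacttc
Muc2 reverse: gagcaagggactctggtctg
They enclose 115 bases of spliced transcript. The forward primer lies at chr7:141753454-141753473 and the reverse primer at chr7:141754072-141754091 of GRCm38, in exons 13 and 15 of a 16-exon transcript, near the end of the gene. The sequencing values below are instead reads counted per gene, and GENCODE places Muc2 at chr7:141690340-141754693. Which parts of the gene were counted is not stated in the sources used here.

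The genes lie on 7 chromosomes of GRCm38 by the GENCODE annotation, with Fcgbp at chr7:28071236-28120862, Zg16 at chr7:127050156-127087328, Clca1 at chr3:145003817-145032776, Spink4 at chr4:40920052-40931395 and Muc3 at chr5:137134922-137149322. Agr2 is at chr12:35992907-36004087, Muc13 at chr16:33794037-33819934, Spdef at chr17:27714352-27728955 and Tff3 at chr17:31125306-31129646. An antisense gene, Gm15657, overlaps an exon of Muc13, and since the counting was not stated to use strand, reads of the pair cannot be told apart.

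Between 13288018 and 22215382 reads were counted on genes per library. The 10 genes together took 1.60% to 2.09% of them, and levels are given below as CPM, each count divided by its library size after TMM scaling, so that libraries of different depth can be compared. Epithelial markers (10 of 10 tested) had summed levels of 13249 to 21261 CPM in all, and 3 libraries were low for their group: untreated control replicate 4 had 13249 CPM, against 19244 to 20805 in the other 3 of its group, and ieIRKO replicates 2 and 5 had 15861 and 16071 CPM, against 19263 to 20953 in the other 4. Of the stomach and large bowel markers, Muc5ac, Gkn1, Gkn2, Tff1 and Hoxd13 had no count in any library, Pgc, Atp4a, Car1, Hoxb13 and Aqp8 had at most 8 counts, Retnlb at most 20 and Best2 at most 39. Car4, on the same large bowel list, was expressed, at 171 to 299 CPM by group mean. Summed reads of the B cell genes Cd79a, Cd79b and Ms4a1 were 170 CPM or more in ieIRKO replicates 2 and 3, against 15.5 to 47.2 CPM in the other 14 libraries. Leaving both out, an alternative chosen after seeing the data, again gave 0 calls among the 10 genes in either comparison of ieIRKO mice. The insulin receptor gene Insr was at 67.2 ± 13.4 CPM (SD, n = 6) in the libraries labelled ieIRKO-STAM-INS and thus no lower than in the insulin-treated controls (62.7 ± 10.1, SD, n = 6), with a log2 fold change of 0.10 (SE 0.13, adjusted p = 0.805, edgeR), so these values do not check that label. The study also measured the gene by real-time PCR, which was not analysed here. Against the untreated controls Insr was lower in both, by log2 fold changes of -0.75 (SE 0.14, adjusted p = 0.00275) in the insulin-treated controls and -0.65 (SE 0.14, adjusted p = 0.00582) in the ieIRKO mice. In whole-wall RNA, fewer goblet cells and less RNA per goblet cell cannot be told apart.

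The first comparison asked whether insulin treatment changed these genes in the control genotype. None of the 10 passed the test between the insulin-treated controls and the untreated controls, in which 10.5% of all genes tested did (edgeR quasi-likelihood test, Benjamini-Hochberg adjusted p under 0.05). At an unadjusted p under 0.05 there were 2, Fcgbp and Spdef, and DESeq2 also called 0. The second comparison asked whether deletion of the epithelial insulin receptor changed them under insulin. Again none of the 10 passed, where 0.223% of all genes did, with 0 at an unadjusted p under 0.05 and 0 by DESeq2. Between the ieIRKO mice and the untreated controls the share of all genes was 13.3%, edgeR called none of the 10, 1 (Zg16) had an unadjusted p under 0.05, and DESeq2 called that gene.

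The intervals show how large a difference these libraries could have missed. Across the 10 genes, the fitted log2 fold changes ran from -0.34 to 0.30 for the insulin comparison, and the outermost bounds of the 95% intervals were 0.634-fold and 1.65-fold. For the ieIRKO comparison the log2 fold changes ran from -0.25 to 0.16, and the bounds were 0.673-fold and 1.38-fold. For the third comparison they ran from -0.41 to 0.28, with bounds of 0.613-fold and 1.61-fold. The median over the 10 was 0.07, -0.05 and 0.01 in these comparisons, where the median over all genes tested was -0.00, 0.02 and 0.01. A doubling or halving therefore lay outside every interval, whereas differences within those bounds could have been missed.

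**Figure D1:**
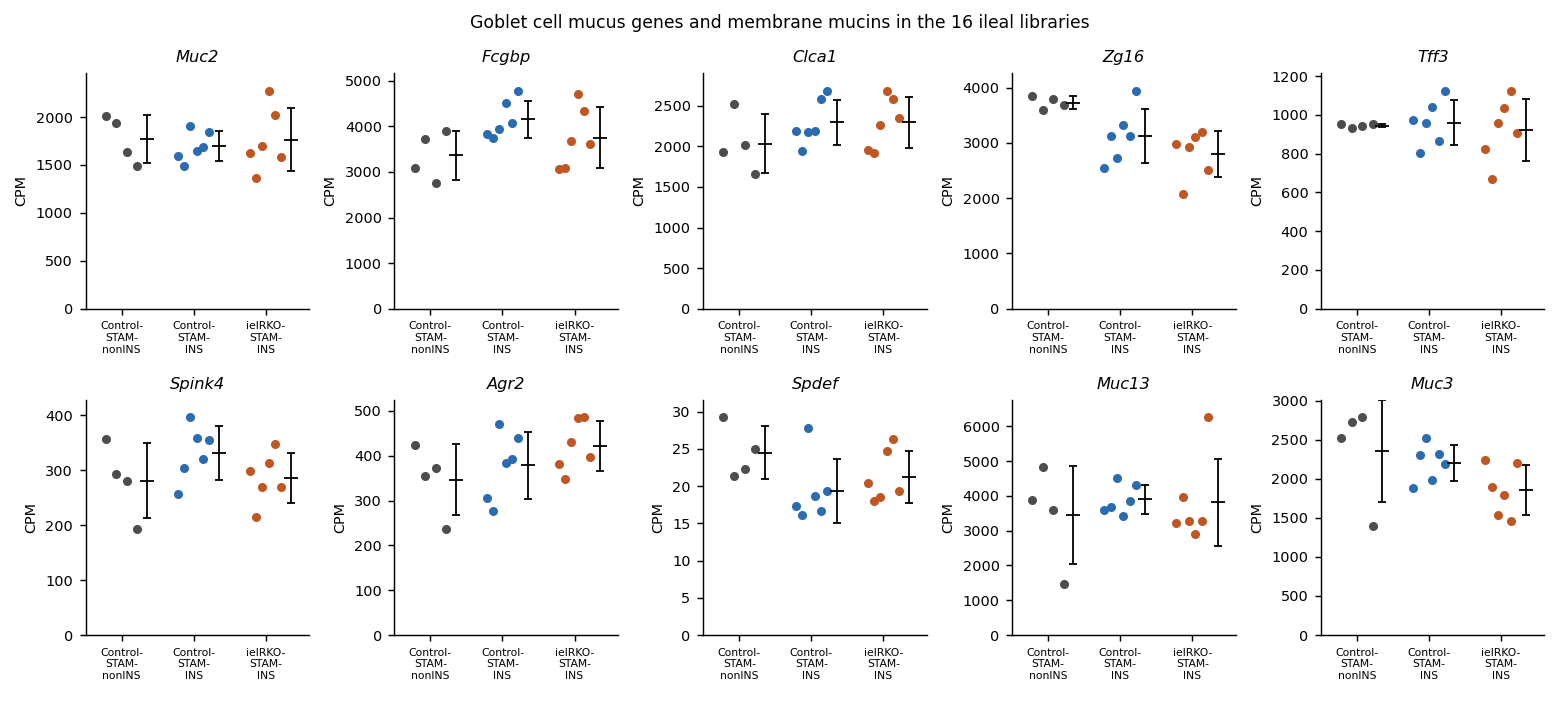
Level of each of the 10 genes in CPM (linear axes from 0) in the 16 libraries. Each point is 1 library in order of replicate number, and the bar to its right is the group mean with SD (n = 4, 6 and 6). The groups overlap in every panel, except that all 6 ieIRKO libraries lie below all 4 untreated control libraries for Zg16. The low point of the untreated controls for Muc13 and Muc3 is replicate 4.

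**Figure D2:**
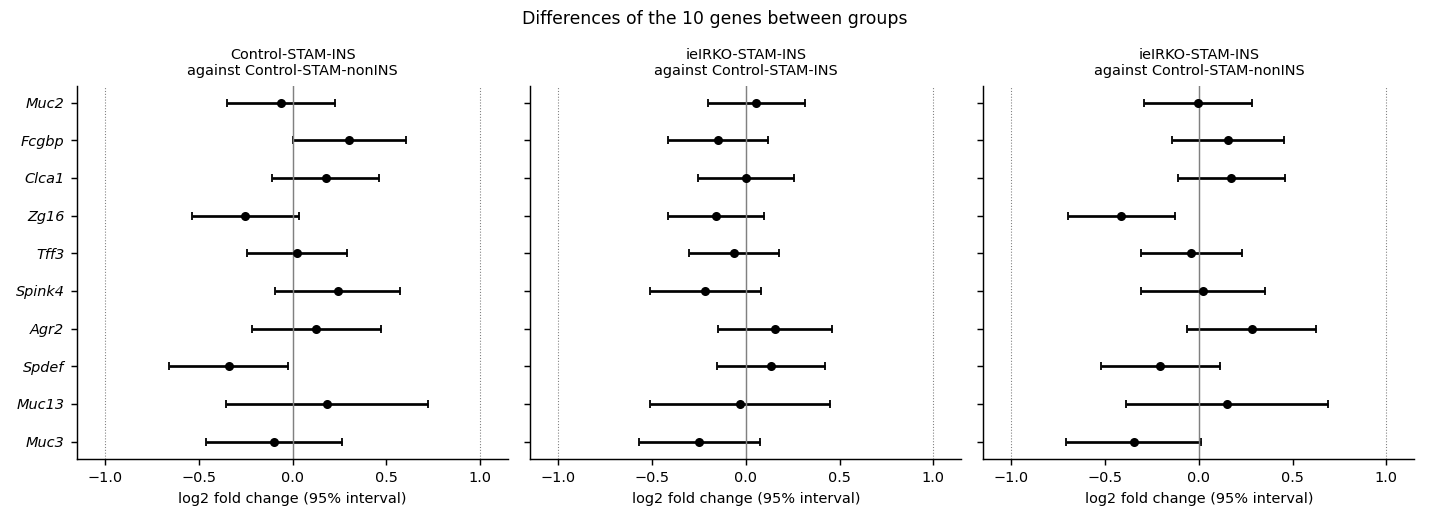
Log2 fold change with its 95% interval from edgeR for the 10 genes in the 3 comparisons. Dotted lines mark a doubling and a halving, which no interval reaches. The interval of Zg16 in the right panel, -0.70 to -0.13, is the farthest from 0.

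Muc2, the gel-forming mucin, was at 2014, 1940, 1636 and 1491 CPM in the 4 untreated control libraries. In the insulin-treated controls it ran from 1488 to 1909 (median 1666), and in the ieIRKO mice from 1365 to 2275 (median 1665). The 3 groups overlapped throughout, and both the lowest and the highest of the 16 libraries came from ieIRKO mice. Group means were 1770.4 ± 248 (SD, n = 4), 1695 ± 156 (SD, n = 6) and 1763 ± 329 CPM (SD, n = 6). The log2 fold change was -0.06 (SE 0.14, adjusted p = 0.825, edgeR) with insulin and 0.06 (SE 0.12, adjusted p = 0.889) for the ieIRKO comparison.

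Fcgbp encodes a large protein with repeated von Willebrand factor domains that is bound in the Muc2 gel. Not corrected for its length, it averaged 3368 ± 539 CPM (SD, n = 4) in the untreated controls, 4152 ± 408 (SD, n = 6) in the insulin-treated controls and 3750.0 ± 666 (SD, n = 6) in the ieIRKO mice. It lay at 3085, 3723, 2757 and 3908 CPM in the untreated controls, from 3756 to 4784 (median 4013) in the insulin-treated controls and from 3069 to 4721 (median 3645) in the ieIRKO mice. Of the untreated control libraries, 3 were below all of the insulin-treated controls and replicate 4 was not. With insulin its log2 fold change was 0.30 (SE 0.14, unadjusted p = 0.0492, adjusted p = 0.195, edgeR) and did not pass the test. For the ieIRKO comparison it was -0.15 (SE 0.13, adjusted p = 0.696). Relative to the epithelial markers the Fcgbp values were 0.11 (adjusted p = 0.791) and -0.03.

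Clca1, a secreted metalloprotease that cleaves Muc2, was at 1926, 2527, 2017 and 1665 CPM in the untreated controls. It ran from 1947 to 2686 (median 2190) in the insulin-treated controls and from 1917 to 2684 (median 2309.8) in the ieIRKO mice. The insulin-treated groups covered nearly the same range, and their means, 2296 ± 280.3 and 2294 ± 315 CPM (SD, n = 6 each), gave a log2 fold change of -0.00 (SE 0.12, adjusted p = 0.999, edgeR).

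Zg16 encodes a lectin that binds Gram-positive bacteria and keeps them away from the epithelium. Its 4 untreated control libraries lay close together, at 3847, 3588, 3790.4 and 3676 CPM. The insulin-treated controls ran from 2544 to 3943 (median 3120.1), and the ieIRKO mice from 2082 to 3194 (median 2953). In the insulin-treated controls, 5 of 6 libraries were below all of the untreated controls, with a log2 fold change of -0.25 (SE 0.14, adjusted p = 0.257, edgeR; -0.42 relative to the epithelial markers). All 6 ieIRKO libraries were below all 4 untreated control libraries, the one case in 30 of a gene whose groups did not overlap, where 8.56% of all genes tested did not overlap in that comparison (10.6% and 0.845% in the insulin and the ieIRKO comparison). The log2 fold change was -0.41 (SE 0.14, 95% interval -0.70 to -0.13, adjusted p = 0.0502), just short of the threshold, and -0.16 (SE 0.12, adjusted p = 0.649) against the insulin-treated controls. The call turned on the tool and on single libraries: the adjusted p was 0.0150 by DESeq2 and 0.0465 in edgeR without ieIRKO replicate 5, and over all alternatives it ran from 0.0150 to 0.158.

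Tff3, a trefoil peptide released with the mucin, had the narrowest untreated control group of the 10 genes relative to its mean, at 953, 935, 941 and 954 CPM. Under insulin the libraries spread from 805 to 1125 (median 965) in the insulin-treated controls and from 672 to 1126 (median 931) in the ieIRKO mice, on both sides of those values. The log2 fold changes were 0.02 (SE 0.13, adjusted p = 0.938, edgeR) and -0.06 (SE 0.12, adjusted p = 0.868).

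Spink4, a small secreted protein with a Kazal-type protease inhibitor domain, was at 358, 294, 280.0 and 192 CPM in the untreated controls. It ran from 257 to 397 (median 338) in the insulin-treated controls and from 215 to 348 (median 284) in the ieIRKO mice. Replicate 4 of the untreated controls was the lowest of all 16. The log2 fold change was 0.24 (SE 0.16, adjusted p = 0.368, edgeR) with insulin and -0.22 (SE 0.14, adjusted p = 0.591) for the ieIRKO comparison. The first was 0.10 without untreated control replicate 4 and 0.38 without replicate 1, and relative to the epithelial markers the second was -0.10.

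Summed over these 6 secreted products, the levels were 12125 ± 667 CPM (SD, n = 4) in the untreated controls, 12563 ± 1253 (SD, n = 6) in the insulin-treated controls and 11812 ± 1801 (SD, n = 6) in the ieIRKO mice. The group means lay within 1 SD of each other.

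Agr2, the protein disulfide isomerase needed for Muc2 folding, was at 423, 354, 373 and 236 CPM in the untreated controls. It ran from 278 to 470.3 (median 388) in the insulin-treated controls and from 348 to 486 (median 414) in the ieIRKO mice. The groups overlapped, with log2 fold changes of 0.13 (SE 0.16, adjusted p = 0.684, edgeR) with insulin and 0.16 (SE 0.15, adjusted p = 0.722) for the ieIRKO comparison. The latter was 0.08 without insulin-treated control replicate 2 and 0.27 relative to the epithelial markers, and the former -0.02 without untreated control replicate 4.

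Spdef, the transcription factor, was by far the lowest of the 10 genes. It stood at 29.3, 21.3, 22.3 and 25.0 CPM in the untreated controls, ran from 16.2 to 27.8 (median 18.0) in the insulin-treated controls and from 17.9 to 26.3 (median 19.9) in the ieIRKO mice. In the insulin-treated controls, 5 libraries were between 16.2 and 19.3 CPM, below all of the untreated controls, and replicate 3 was at 27.8. With insulin the log2 fold change was -0.34 (SE 0.15, unadjusted p = 0.0369, adjusted p = 0.163, edgeR). Without insulin-treated control replicate 3 it was -0.47 with an adjusted p of 0.0306, so that library decided the call.

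Muc13, a membrane mucin, was at 3873, 4825, 3582 and 1481 CPM in the untreated controls. It ran from 3428 to 4518 (median 3768) in the insulin-treated controls and from 2891 to 6270.1 (median 3278) in the ieIRKO mice. It had the widest spread of the 10 genes, with extremes in untreated control replicate 4, the library low in epithelial markers, and in ieIRKO replicate 6. The residual SD within groups was 0.449 on the log2 scale, larger than in all but 6.65% of the 11187 genes with a mean of at least 5 CPM, whereas Muc2 (0.208) lay near their median (0.200). Its log2 fold change was 0.18 (SE 0.26, adjusted p = 0.715, edgeR) with insulin, -0.07 without untreated control replicate 4, and -0.03 (SE 0.23, adjusted p = 0.971) for the ieIRKO comparison.

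Muc3, the other membrane mucin, was at 2525, 2726, 2793 and 1397 CPM in the untreated controls. It ran from 1887 to 2518 (median 2249) in the insulin-treated controls and from 1462 to 2238 (median 1844) in the ieIRKO mice. In the untreated controls 3 libraries were higher than every insulin-treated control library, and replicate 4 was the lowest of the 16. Its log2 fold change was -0.10 (SE 0.17, adjusted p = 0.772, edgeR) with insulin (-0.28 without untreated control replicate 4, -0.015 without replicate 2 and -0.0047 without replicate 3), -0.25 (SE 0.15, adjusted p = 0.573) for the ieIRKO comparison and -0.35 (SE 0.17, adjusted p = 0.186) for the third comparison. Without untreated control replicate 4 the last was -0.53 with an adjusted p of 0.0165. Counted against 1000 reads of the epithelial markers, Muc3 was at 126 ± 13.7 (SD, n = 4), 110.0 ± 14.4 (SD, n = 6) and 99.2 ± 14.0 (SD, n = 6), and the part of the epithelial share in the low value of replicate 4 was not otherwise tested. Reads could also be shared with the neighbouring paralog Muc3a, which was at 55.3 ± 9.45, 41.6 ± 6.13 and 40.4 ± 7.62 CPM (SD, n = 4, 6 and 6).

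Per length of annotated exon, the order of the levels differed from that of the reads. In CPM per kilobase of exon, averaged over the 16 libraries, Zg16 (2509) and Tff3 (1910.3) came first, followed by Muc13 (1235), Muc3 (1087), Spink4 (633), Clca1 (590.4), Fcgbp (363), Agr2 (299), Muc2 (244) and Spdef (9.25). Neighbours in that order kept it in all 16 libraries for Zg16 over Tff3, Muc3 over Spink4, Clca1 over Fcgbp and Muc2 over Spdef, and in 15 for Tff3 over Muc13 and Agr2 over Muc2. It held in 13 for Fcgbp over Agr2 and in 12 for Muc13 over Muc3, whereas Spink4 and Clca1 changed places, with Spink4 higher in 8 of 16. The place of Muc2 depended on the length taken for it, since the annotation marks its locus as fragmented. With the longest single transcript of each gene, 2926 bases for Muc2 against 7127 bases of merged exon, it rose to rank 7. Whether either length covers the full Muc2 transcript was not tested.

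Within the groups, levels of the 8 goblet cell genes were positively related from library to library, to differing degrees. Over the 16 libraries, after the group means were taken away from log2 CPM, all 28 pairs among Muc2, Fcgbp, Clca1, Zg16, Tff3, Spink4, Agr2 and Spdef had a positive Pearson's r, from 0.13 to 0.88 with a median of 0.56. Over all 62568891 pairs of the 11187 genes with a mean of at least 5 CPM the median was -0.00, 49.5% were positive and 5.25% reached 0.56. Spink4 and Agr2 were the closest pair, while Clca1 with Spdef (0.13), Fcgbp with Spink4 (0.18), Fcgbp with Agr2 (0.22) and Zg16 with Spdef (0.23) were weakly related. Muc2 and Agr2 had r = 0.81 (Spearman's rho 0.83, r = 0.85 without the 2 libraries farthest from the median of Muc2, n = 16). Muc13 and Muc3 went with each other, at r = 0.80 (rho 0.64), but this fell to 0.58 without the 2 farthest libraries. Between the goblet cell genes and these membrane mucins, 8 of 16 pairs were positive and r ran from -0.52 (Fcgbp with Muc3) to 0.44 (Spink4 with Muc3), with a median of 0.02. The points share library depth and the scaling, and no test was made of these correlations.

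**Figure D3:**
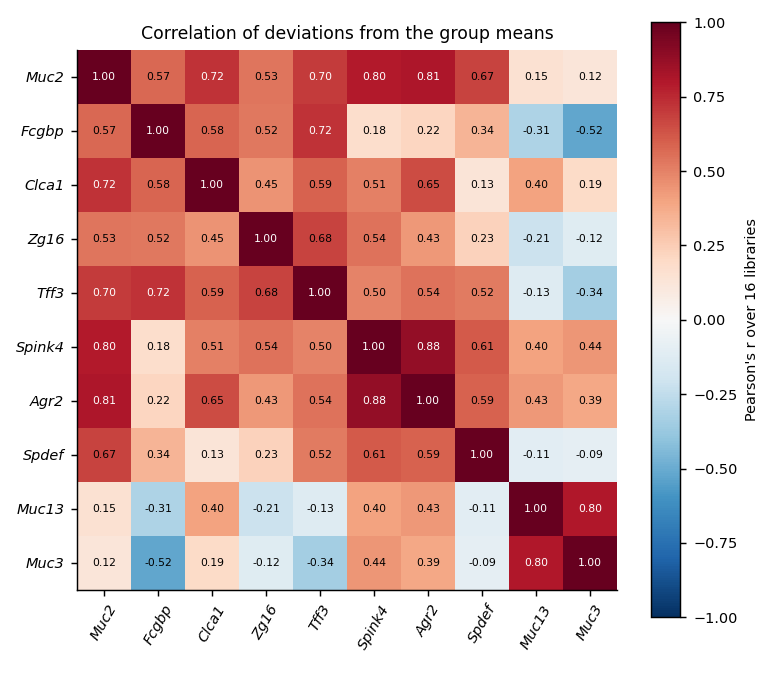
Pearson's r between each pair of the 10 genes over 16 libraries, computed on deviations of log2 CPM from the group means (colour from -1, blue, to 1, red; the number is r). All 28 pairs in the upper left block of 8 goblet cell genes are positive, and Muc13 with Muc3 is at 0.80. Pairs of a goblet cell gene with Muc13 or Muc3 run from -0.52 to 0.44.

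The summed level of the 8 goblet cell genes had r = 0.09 with the epithelial markers (rho 0.00, n = 16; r = -0.20 without the 2 farthest libraries) and r = -0.36 with the enterocyte markers (rho -0.25; r = -0.50 without the 2 farthest libraries). Muc13 and Muc3 had r = 0.68 and 0.76 with the epithelial markers, falling to 0.28 and 0.40 without the 2 farthest libraries. With the enterocyte markers Muc13 had r = 0.19 (rho 0.10) and Muc3 r = 0.54 (rho 0.49). Without the 2 farthest libraries the values of r with enterocyte markers were 0.03 and 0.29. Among the 11186 other genes with a mean of at least 5 CPM, the 10 most like Muc2 by this measure included Klk1 (r = 0.92), Kptn (0.89), Gm17018 (0.87), Pdia5 (0.82), Agr2 (0.81), Hepacam2 (0.80), Galnt12 (0.80), Ccdc12 (0.80) and Lrrc26 (0.80). Of these, Agr2 is one of the 10 genes, and Pdia5, Hepacam2 and Galnt12 were on the list of other goblet cell products. Spink4 came next at rank 11, followed by Clca1 at 56, Tff3 at 77, Spdef at 103, Fcgbp at 333 and Zg16 at 474, while Muc13 and Muc3 were at ranks 3690 and 4089. The list depended on the measure: by Spearman's rho 4 of the 10 stayed (Klk1, Kptn, Gm17018 and Agr2), and with group means left in 5 stayed, with Klk1 at rank 8 (r = 0.75) and Agr2 outside the 10.

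The ratio of a pair within a library removes the variation that the pair shares, which differed from pair to pair. Of the 45 ratios among the 10 genes, 3 did not overlap between the insulin-treated controls and the untreated controls (6.67%), where 12.4% of all gene pairs did not. They were Zg16 with Fcgbp, Spink4 with Spdef and Agr2 with Spdef. For the ieIRKO comparison there was 1, Spink4 with Agr2 (2.22%, against 1.12% of all pairs), and for the third comparison there were 5 (11.1%, against 9.85%). These shares lie near or below that of all pairs or rest on 1 ratio, so they are given as values.

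The ratio of Zg16 to Fcgbp was 1.25, 0.964, 1.37 and 0.941 in the untreated controls, from 0.663 to 0.831 in the insulin-treated controls and from 0.658 to 0.970 in the ieIRKO mice. All 6 insulin-treated control libraries were below all 4 untreated control libraries, and 1 of the 6 ieIRKO libraries reached into their range. The ratio of Spink4 to Agr2 was 0.890 ± 0.109 (SD, n = 6) in the insulin-treated controls and 0.677 ± 0.0623 (SD, n = 6) in the ieIRKO mice, with no overlap, and 0.810 ± 0.0421 (SD, n = 4) in the untreated controls.

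**Figure D4:**
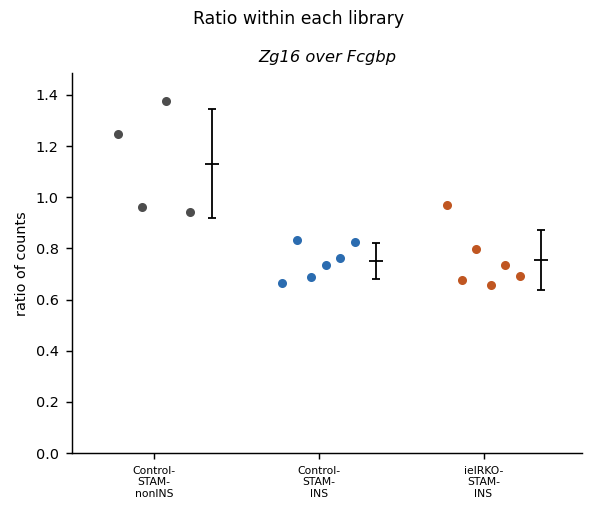
Ratio of Zg16 to Fcgbp counts in each library (points) with the group mean and SD (bar, n = 4, 6 and 6). The untreated controls lie from 0.941 to 1.37, above all of the insulin-treated controls.

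The other genes of the mucus pathway were read from lists by role, whose counts stand against 10.5% of all genes called with insulin (570 higher and 1032 lower) and 0.223% in the ieIRKO comparison (6 higher and 28 lower). Of the other mucins and mucin-like proteins, 7 of the 13 in the files were tested, and 0 passed in either of the first 2 comparisons by edgeR or DESeq2 (1 and 0 at an unadjusted p under 0.05). Muc3a, named after its values were seen, was called lower in the ieIRKO mice than in the untreated controls (log2 fold change -0.45, SE 0.14, adjusted p = 0.0414). Of the gel-forming mucins of other organs, Muc5ac was at 0 and Muc5b at no more than 2 counts in every library, and Muc6 had 4 to 23 counts.

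Of 18 other goblet cell products tested, 3 rose with insulin and 0 fell, and 2 fell and 0 rose in the ieIRKO comparison, beside 10.5% and 0.223% of all genes. The median log2 fold change of the list was 0.08 and -0.05. Itln1, a lectin also made by Paneth cells, was at 343, 526, 309 and 128 CPM in the untreated controls, from 593 to 1017 (median 891) in the insulin-treated controls and from 237 to 435 (median 332) in the ieIRKO mice. The insulin-treated controls lay above both other groups without overlap. The log2 fold change was 1.39 (SE 0.29, adjusted p = 0.00615, edgeR) with insulin and -1.36 (SE 0.25, adjusted p = 0.0234) in the ieIRKO mice, and the second call was lost, with adjusted p from 0.0542 to 0.0864, when any of 9 of the 12 libraries was left out (insulin-treated control replicates 2, 3, 4 and 6, and ieIRKO replicates 2 to 6). It was also lost without the filter on low counts (adjusted p = 0.0615), with the replicate block (0.0948) and without both B cell-rich libraries (0.236), where the Itln1 log2 fold change was still -1.23. Ang4, an angiogenin with antimicrobial activity likewise made by Paneth cells, fell from 162 ± 40.7 CPM (SD, n = 6) in the insulin-treated controls to 51.7 ± 14.2 (SD, n = 6) in the ieIRKO mice, a log2 fold change of -1.64 (SE 0.20, adjusted p = 4.02e-04, edgeR). Of 8 Paneth cell markers, which include Itln1 and Ang4, 4 were called lower in the same comparison, among them Lyz1 with a log2 fold change of -2.31 (SE 0.18, adjusted p = 1.25e-06). The summed level of the Paneth markers was 2955 to 4870 CPM in the insulin-treated controls and 807 to 1504 in the ieIRKO mice, and its part in the Itln1 and Ang4 results was not tested.

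Nlrp6, an inflammasome sensor that acts in mucus release, rose with insulin from 153 ± 34.9 (SD, n = 4) to 222 ± 18.3 CPM (SD, n = 6), a log2 fold change of 0.54 (SE 0.12, adjusted p = 0.0110, edgeR; 0.0536 without untreated control replicate 1). Tpsg1, a membrane-anchored tryptase, rose from 13.1 ± 1.91 to 19.3 ± 2.55 CPM, with no overlap and a log2 fold change of 0.56 (SE 0.13, adjusted p = 0.0126). Relative to the epithelial markers neither passed, with log2 fold changes of 0.37 (adjusted p = 0.142) for Nlrp6 and 0.41 (0.156) for Tpsg1. Best2 and Retnlb did not pass the filter on low counts and were singled out after their values were seen. Best2, a bestrophin channel of large bowel goblet cells, had 4 to 39 counts in the untreated control libraries, 0 in all 6 insulin-treated control libraries and 0 to 6 in the ieIRKO mice. Against a floor of 3 counts over the group, it was at least 52.0-fold higher in the untreated controls than in the insulin-treated controls, and the fit without the filter gave an adjusted p of 1.48e-04. Retnlb, a bactericidal goblet cell product, had 0 counts in all 4 untreated control libraries and 0 to 20 in the insulin-treated controls (replicate 2 at 0), at least 11.9-fold higher there by the same floor (adjusted p = 0.00693 without the filter). The ieIRKO mice had 1 to 13 Retnlb counts, at least 8.45-fold above the untreated controls (adjusted p = 0.0133).

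Of 16 regulators of the secretory lineage, 3 fell with insulin and 0 rose (median log2 fold change -0.05), where 10.5% of all genes were called and most of those were lower, and 0 passed in the ieIRKO comparison by edgeR or DESeq2, with 0 at an unadjusted p under 0.05. Atoh1, the basic helix-loop-helix factor that commits cells to the secretory lineage, was at 36.8, 30.3, 34.3 and 36.0 CPM in the untreated controls and from 19.0 to 28.3 (median 21.9) in the insulin-treated controls. These groups did not overlap, and the log2 fold change was -0.56 (SE 0.16, adjusted p = 0.0367, edgeR). The call was nevertheless narrow, with an adjusted p of 0.0631 to 0.107 when any of 7 of 10 libraries was left out. These were untreated control replicates 1, 3 and 4 and insulin-treated control replicates 2, 4, 5 and 6. The Atoh1 call was also lost with upper-quartile scaling (adjusted p = 0.0515, edgeR) and with the replicate block (0.0674). Creb3l1, an endoplasmic reticulum stress factor of secretory cells, changed by -0.47 (SE 0.14, adjusted p = 0.0332), and without untreated control replicate 1, at 54.9 CPM against 30.6 to 35.2 in the other 3, the log2 fold change was -0.26 and the adjusted p was 0.171 (0.0524 to 0.0645 without insulin-treated control replicates 1, 2, 4, 5 or 6). Sox9, a factor of crypt and Paneth cells, changed by -0.58 (SE 0.14, adjusted p = 0.0144, and 0.0631 without untreated control replicate 4).

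Of 25 enzymes and transporters of mucin O-glycosylation tested, 1 rose and 2 fell with insulin, a share near the 10.5% of all genes, and 0 passed in the ieIRKO comparison by edgeR or DESeq2, with 4 at an unadjusted p under 0.05. The 2 that fell were Gcnt3, which builds core 2 and core 4 branches of mucin glycans, and the sialyltransferase St3gal6. Gcnt3 was at 326, 226, 289 and 131 CPM in the untreated controls and from 60.4 to 125 (median 94.0) in the insulin-treated controls, without overlap. Its log2 fold change was -1.36 (SE 0.30, adjusted p = 0.00982, edgeR), and in the ieIRKO mice it ran from 59.8 to 189. St3gal6 went from 22.1 ± 1.86 (SD, n = 4) to 13.1 ± 2.15 CPM (SD, n = 6), again without overlap, with a log2 fold change of -0.75 (SE 0.13, adjusted p = 0.00136). Gcnt4, another branching enzyme, rose from 51.2 ± 8.75 (SD, n = 4) to 76.1 ± 6.34 CPM (SD, n = 6), without overlap and with a log2 fold change of 0.57 (SE 0.14, adjusted p = 0.0133). The Gcnt4 call was lost without untreated control replicate 1 (adjusted p = 0.0582) or 3 (0.0506), and relative to the epithelial markers (0.231).

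Of 13 genes of mucus release, unpacking and cross-linking tested, 2 fell with insulin and 0 rose, where 10.5% of all genes were called and most of those were lower, and 0 passed in the ieIRKO comparison by edgeR or DESeq2, with 2 at an unadjusted p under 0.05. Both that fell encode transporters of the ion and fluid secretion in which mucins unfold. Slc12a2, the basolateral sodium, potassium and chloride cotransporter, was at 371, 247, 267 and 294 CPM in the untreated controls, from 157 to 207 (median 175) in the insulin-treated controls and from 141 to 205 (median 168) in the ieIRKO mice. Both insulin-treated groups were below the untreated controls without overlap, with log2 fold changes of -0.73 (SE 0.12, adjusted p = 9.19e-04, edgeR) and -0.80 (SE 0.12, adjusted p = 5.04e-04). Cftr, the apical chloride and bicarbonate channel, was at 111, 80.1, 105 and 128 CPM in the untreated controls and from 50.8 to 78.5 (median 68.4) in the insulin-treated controls. Its log2 fold change was -0.67 (SE 0.14, adjusted p = 0.00579), and between the insulin-treated groups it was -0.01 (SE 0.13, adjusted p = 0.990).

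**Figure D5:**
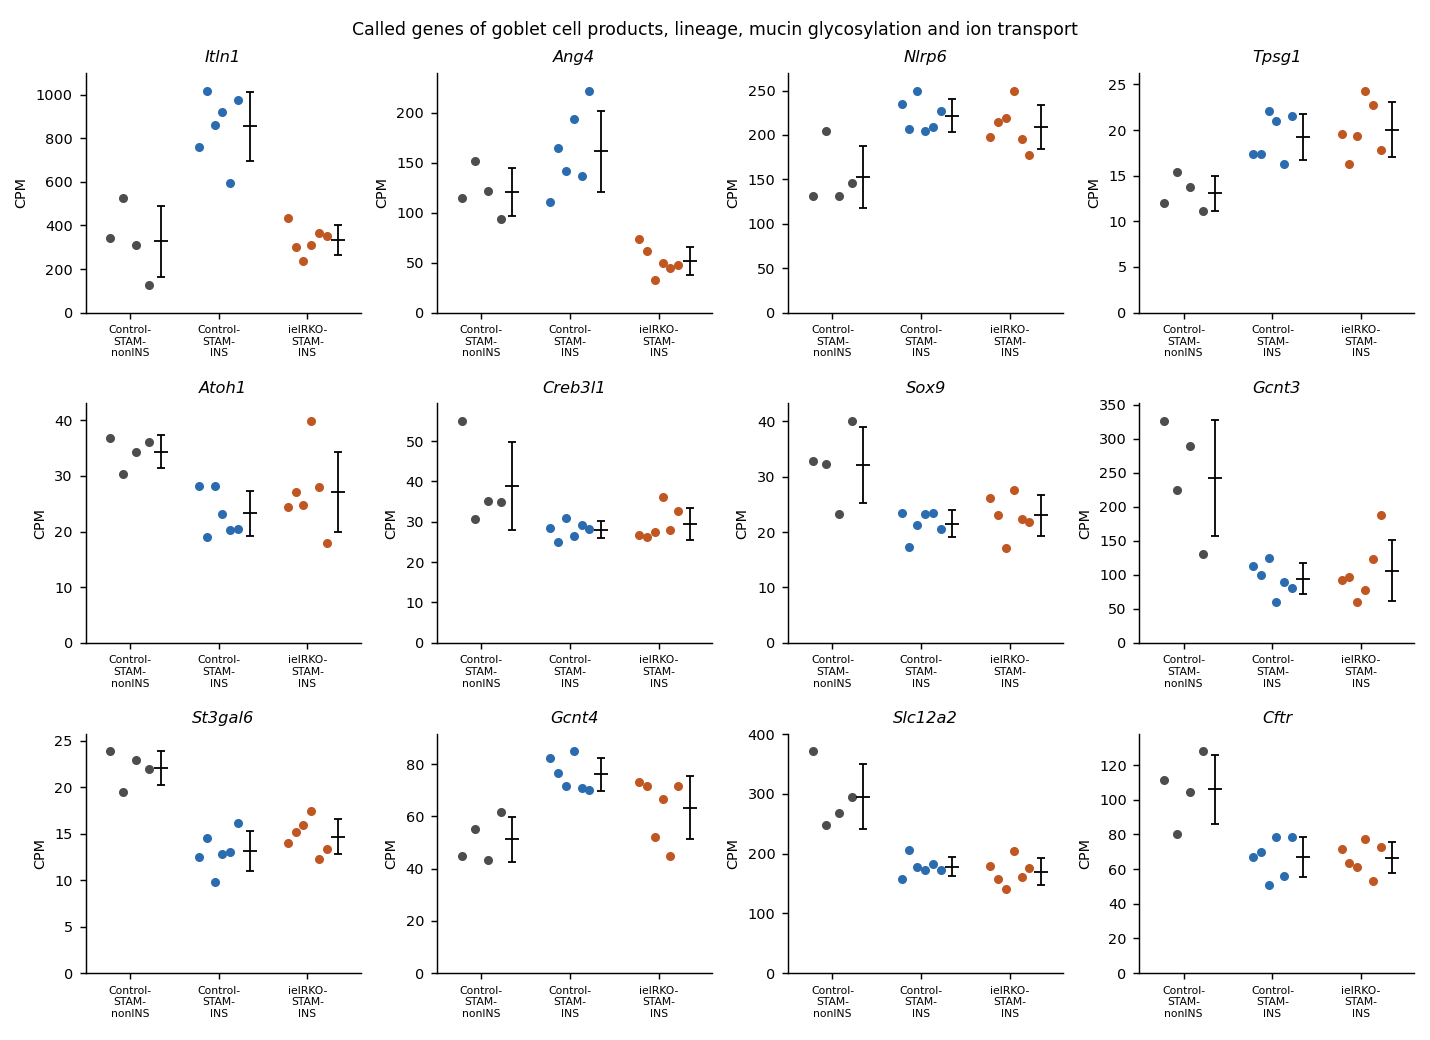
Level in CPM (linear axes from 0) of 12 genes of the other lists that passed the test in either of the first 2 comparisons. Each point is 1 library and the bar is the group mean with SD (n = 4, 6 and 6). Itln1 and Ang4 are lower in the ieIRKO mice than in the insulin-treated controls without overlap, and Gcnt3, St3gal6, Slc12a2, Cftr and Atoh1 are lower in the insulin-treated controls than in the untreated controls without overlap.

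Of 12 cytokines that act on goblet cells and their receptors, 7 were tested, 1 fell with insulin, and the same gene rose in the ieIRKO comparison. This was Il1rl1, the interleukin-33 receptor, at 22.4, 15.5, 22.5 and 17.1 CPM in the untreated controls, from 4.94 to 8.94 (median 6.24) in the insulin-treated controls and from 9.06 to 15.5 (median 13.3) in the ieIRKO mice. The log2 fold changes were -1.56 (SE 0.17, adjusted p = 3.84e-05, edgeR) and 0.99 (SE 0.15, adjusted p = 0.00328). Il13, the cytokine best known for goblet cell expansion, had 0 counts in all 16 libraries and Il4 at most 1. Il22 had at most 18 in the untreated controls, 3 in the insulin-treated controls and 141 in the ieIRKO mice, and did not pass the filter on low counts.

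Calls among markers of other cells stand against the share of all genes called. That share was 10.5% with insulin, 0.223% in the ieIRKO comparison and 13.3% in the third. With insulin, 1 of 10 epithelial markers was called lower (Krt18, -0.50 on the log2 scale, SE 0.12, adjusted p = 0.0169, edgeR; 0.0519 without untreated control replicate 1 and 0.0601 without replicate 3), and 0 of 10 enterocyte markers were called by edgeR or DESeq2 (1 at an unadjusted p under 0.05). Of the enteroendocrine markers 4 of 8 were lower (Chga, Chgb, Gcg and Neurod1), of the Paneth markers 2 of 8 were higher (Itln1 and Habp2), and of the tuft cell markers 1 of 6, Trpm5, was higher. In the ieIRKO comparison edgeR made calls in the Paneth list and in none of the other marker lists, where 1 epithelial, 1 enteroendocrine, 0 enterocyte and 0 tuft cell markers had an unadjusted p under 0.05 and DESeq2 called 0 in these 4 lists. Of the 6 B and plasma cell markers edgeR called 0 in that comparison, yet all 6 were higher with an unadjusted p under 0.05 and DESeq2 called 4. With insulin edgeR called 0 of them (1 at an unadjusted p under 0.05) and DESeq2 called Mzb1. Their summed level was 718 to 1771 CPM in the untreated controls, 959 to 1541 in the insulin-treated controls and 1655 to 3115 in the ieIRKO mice. Of 7 smooth muscle markers 0 were called in either comparison by edgeR or DESeq2 (1 and 0 at an unadjusted p under 0.05). Of 2 large bowel markers tested 0 were called by edgeR (1 and 0 unadjusted) and DESeq2 called Car4 with insulin, and 0 of 6 stomach markers passed the filter on low counts. In the third comparison, the one in which Zg16 and Muc3 came nearest to a call, edgeR called 3 of 6 B and plasma cell markers higher (list median log2 fold change 1.95), 3 of 8 Paneth, 2 of 8 enteroendocrine and 1 of 10 enterocyte markers lower, and 1 of 6 tuft cell markers higher. It called 0 of 10 epithelial, 0 of 7 smooth muscle and 0 of 2 large bowel markers, as did DESeq2 (0, 1 and 0 at an unadjusted p under 0.05). Of the 10 enterocyte markers, 6 had a negative log2 fold change with insulin (median -0.17). In the ieIRKO comparison 9 did (median -0.43), and in the third 7 did (median -0.55). The part of the cells behind all these markers in the levels of the 10 genes was not tested.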

How the data were processed

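RNA of the whole ileal wall was sequenced from 16 mice, which the labels number as biological replicates of 3 groups. The authors treated the RNA with DNase, made directional NEBNext libraries, sequenced them on a NovaSeq and aligned the reads with CLC Genomics Workbench to GRCm38 (mm10 in the submitters' processing notes). They deposited 1 table per mouse of raw counts, the whole number of reads per gene, not normalized. The counting options, including strand and reads matching several genes, are not given in the sources used here. Between 13288018 and 22215382 reads were counted per library.

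Counts were fitted with edgeR 4.0.16 (limma 3.58.1, R 4.3.3): filterByExpr (minimum count 10, minimum total 15) left 15267 of 22872 genes with a count, sizes were scaled by TMM, and a robust quasi-likelihood model of all 3 groups gave Benjamini-Hochberg adjusted p over all genes tested. Intervals of fold changes are 95% intervals from this model and cover the spread between these mice and counting error. Log2 CPM used a prior count of 2. Positions and exon lengths came from a GENCODE annotation of GRCm38, which held 97.5% of the gene names, and the sequences came from RefSeq (GRCm38.p6; 6 of the 10 genes matched) and from the study's primer table. Likeness was Pearson's r over deviations from group means, among genes with a mean of at least 5 CPM. The 10 genes most like Muc2 were named, except 1 that is not reported here.

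The 10 genes and all lists were chosen with earlier results of these data known. Genes of other lists were named if they passed in either of the first 2 comparisons, up to 6 a list by the smallest p. On simulated data of the same design, 200 genes were changed by 1.5 on the log2 scale. Of these, edgeR recovered 193 in the insulin comparison (7 false among 200 calls) and 196 in the ieIRKO comparison under insulin (10 false among 206). The planted changes exceeded every fitted log2 fold change of the 10 genes, so this recovery does not speak for differences of that size. Alternatives were DESeq2 1.42.0, upper-quartile scaling, scaling to epithelial markers, no filter, a minimum of 10 counts in each library, fitting only the groups compared, a replicate block, leaving out each library, and leaving out both B cell-rich libraries. Figures were drawn with matplotlib 3.10.9. All 16 libraries entered the values reported.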

Additional observations from a re-analysis of the deposited data

Results flagged for a closer look

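Each of the 10 genes was examined in each group for a library far from the others, by the gap to the nearest library over the range of the group. Of 30 such sets of libraries 2 were past the critical value of Dixon's test, where chance gives about 1.5, or about 1 in 20.

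Spdef was high in replicate 3 of the insulin-treated controls, at 27.8 CPM against 16.2 to 19.3 CPM in the other 5 libraries, a gap of 0.675 of the range. In the same library Agr2 (470.3 CPM), Spink4 (397), Muc2 (1909), Muc13 (4518) and Muc3 (2518) were also the highest of their group. Fcgbp, Clca1, Zg16 and Tff3 were not.

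Muc3 was low in replicate 4 of the untreated controls, at 1397 CPM against 2525 to 2793 CPM in the other 3 libraries, a gap of 0.854 of the range. That library was also the lowest of its group for Muc13, Muc2, Clca1, Spink4 and Agr2 and for the summed epithelial markers (13249 CPM), and the highest for Fcgbp (3908 CPM).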

How the results depend on the processing

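Across the alternatives, the 10 genes gave 30 log2 fold changes with 550 other values, of which 504 kept their direction and side of the threshold, 5 newly passed it and 41 changed sign without passing. The number of the 10 that were called stayed at 0 in each comparison, with these exceptions, whose cause was not tested. It was 1 in the third comparison with DESeq2 (Zg16) and with at least 10 counts in each library (Zg16, edgeR adjusted p = 0.0487). Leaving out single libraries gave 0 to 1 in the insulin comparison (Spdef, without insulin-treated control replicate 3), 0 to 0 in the ieIRKO comparison, and 0 to 1 in the third (Muc3 without untreated control replicate 4, Zg16 without ieIRKO replicate 5). Log2 fold changes of other sign follow. Upper-quartile scaling gave 0.010 for Clca1 and 0.00079 for Cftr in the ieIRKO comparison and 0.036 for Muc2 in the third. Relative to epithelial markers, which moved the median of all genes to -0.17, 0.13 and -0.05 in the 3 comparisons, Tff3 was -0.15 and Lyz1 -0.048 with insulin, and in the ieIRKO comparison Clca1 was 0.11, Tff3 0.057, Muc13 0.073, Nlrp6 0.035, Slc12a2 0.038 and Cftr 0.10. Without both B cell-rich libraries, Clca1 was 0.051, Tff3 0.0089, Slc12a2 0.0085 and Cftr 0.030 in the ieIRKO comparison, and Muc2 0.087 and Tff3 0.044 in the third. Leaving out single libraries, the insulin comparison gave -0.14 to 0.0044 for Muc2, -0.028 to 0.068 for Tff3, -0.020 to 0.24 for Agr2, -0.071 to 0.40 for Muc13 and -0.023 to 0.20 for Lyz1. The ieIRKO comparison gave -0.030 to 0.12 for Muc2, -0.051 to 0.049 for Clca1, -0.13 to 0.014 for Tff3, -0.23 to 0.036 for Muc13, -0.0077 to 0.11 for Tpsg1, -0.070 to 0.29 for Gcnt3 and -0.073 to 0.050 for Cftr. The third gave -0.087 to 0.064 for Muc2, -0.10 to 0.043 for Tff3, -0.12 to 0.16 for Spink4, -0.10 to 0.37 for Muc13 and -0.24 to 0.37 for Itln1.

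With the replicate block 0 of the 10 were called in each comparison, and signs changed to -0.039 for Tff3 with insulin, 0.0013 for Clca1 in the ieIRKO comparison and -0.015 for Spink4 in the third. Over all genes the block gave 1397, 30 and 1615 calls, against 1602, 34 and 2036 without it, and Creb3l1 (adjusted p = 0.0508, edgeR) and Atoh1 (0.0674) with insulin and Itln1 (0.0948) in the ieIRKO comparison no longer passed. Deviations of libraries with the same number correlated at 0.02 to 0.28, -0.06 to 0.31 and -0.15 to 0.09 in the 3 pairs of groups, and 1 of 4, 3 of 6 and 0 of 4 libraries were closest to their own number, so the numbers were not taken as pairs.

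Of the other named genes, calls had 481 alternative values, of which 419 stayed calls in the same direction and 62 no longer passed. Over all genes, calls moved by over 1.5 times with DESeq2 in the ieIRKO comparison (123 against 34, of which 52.8% against 17.6% were higher), and in the third relative to epithelial markers (913 against 2036), with only its 2 groups fitted (1038) and without both B cell-rich libraries (1270). Single libraries left out gave 824 to 1877, 29 to 50 and 1093 to 2274 calls, the lowest of the first without untreated control replicate 1. The share of calls that were higher went from 35.6% to 9.42% with insulin and from 43.1% to 21.5% in the third comparison when set relative to epithelial markers.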
